A study of Danio rerio with 6 samples.

Results

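The genes described here encode the proteasome, its activators and the chaperones that assemble it. They were every row of the 2 deposited gene tables whose symbol begins with psma, psmb, psmc, psmd, psme, psmf or psmg. This rule gave 57 of 31901 genes, of which 55 have lower-case zebrafish symbols and 2, PSMD2 and PSMD4, have upper-case ones. RNA was sequenced in 6 libraries, 2 for each of 3 groups of zebrafish. The lck-IRF4;p53+/- tumor cells carried human IRF4 and the red marker mCherry under the zebrafish lck promoter, which is active in lymphocytes, and were heterozygous for a mutation of p53. The lck-IRF4 tumor cells carried the same transgenes without a p53 mutation named in their labels. The lck-mCherry controls were normal thymus from fish that carried the marker alone, so all 3 groups shared mCherry and none of the controls carried the p53 mutation. Tumor cells were sorted on mCherry after lymphoma had developed; for the controls the labels mention harvest of the thymus but no sorting. The labels give no ages, and they do not say whether libraries with the same group name came from separate animals, so the p-values measure only the spread between these libraries.

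The 26S proteasome degrades proteins tagged with ubiquitin. Its 20S core is a barrel of rings of alpha subunits (psma genes) around rings of beta subunits (psmb genes), and the beta subunits psmb5, psmb6 and psmb7 carry the catalytic sites. The 19S regulatory particle unfolds substrates with a ring of ATPases (psmc genes) and recognises and deubiquitinates them with non-ATPase subunits (psmd genes). In lymphocytes and under interferon the inducible subunits psmb8, psmb9 and psmb10 replace the constitutive catalytic subunits, which gives the immunoproteasome, a supplier of peptides for class I antigen presentation. Zebrafish have further genes of this inducible kind, psmb12 and psmb13a, and psmb11 is known from mammals as the subunit of thymic cortical epithelium. In fish the psmb8, psmb9, psmb12 and psmb13 genes lie in the class I region of the major histocompatibility complex, a region known in zebrafish for haplotypes with divergent gene copies. No sequences of these genes were used here.

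Gene counts for each library were recovered as whole numbers from the authors' mean columns, as no table of gene counts per library was used here. Of the 57 members, 56 had a count in at least 1 library and all 56 were recovered, while PSMD4 had none. Total transcript counts ran from 10138258 to 12655373 per library. Levels below are CPM, counts scaled to a common library size by the trimmed mean of M-values (TMM), and they were compared between libraries, not between genes, because no transcript lengths were at hand. The edgeR quasi-likelihood test was run on 13847 genes that passed its filter on low counts, 51 members among them. The members left out were psmb7, psmb11a, psmb11b, psmd9, psme4b and PSMD4. In bulk libraries, fewer cells of a type and less RNA per cell cannot be told apart.

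Levels of several cell type marker genes differed between the groups, and the part of cell composition in the results below was not tested. cd8b, a chain of the CD8 coreceptor, fell in tumors: it had 5.45 and 2.11 CPM in lck-IRF4;p53+/- tumors and 7.96 and 4.94 CPM in lck-IRF4 tumors, against 159 and 96.2 CPM in controls. Its log2 fold change in the mean of both tumor groups was -4.69 ± 0.47 (SE; edgeR adjusted p = 0.0095), and the call was lost without lck-mCherry replicate 1 (-4.29), lck-mCherry replicate 2 (-5.01) or lck-IRF4 replicate 2 (-4.55). Another T cell gene, rag2, a recombinase of antigen receptor genes, went the other way without passing the test, with 399 and 903 CPM in lck-IRF4;p53+/- tumors and 351 and 669 CPM in lck-IRF4 tumors, against 178 and 199.8 CPM in controls (log2 fold change 1.61; edgeR adjusted p = 0.092). Summed over the 3 granulocyte markers measured, the level ranged from 16.4 to 55.4 CPM in tumor libraries, against 0.469 to 1.48 CPM in controls. Most of this was cpa5, at 16.6 and 47.5 CPM in lck-IRF4;p53+/- tumors and 43.9 and 11.8 CPM in lck-IRF4 tumors. lyz had 38 to 95 reads and mpx 4 to 13 reads in tumor libraries, against at most 1 read in controls. The 7 macrophage markers summed to between 44.3 and 386 CPM in tumor libraries, against 17.3 to 31.2 CPM in controls, and the 6 erythrocyte markers to between 112 and 999 CPM, against 158 to 338 CPM. The 4 B cell markers summed to between 32.9 and 82.3 CPM in tumor libraries, against 17.3 to 17.9 CPM in controls. In lck-IRF4;p53+/- tumors that sum was mostly blnk, at 28.9 and 31.3 CPM, against 11.6 and 9.35 CPM in controls. There cd79b lay below both controls, at 0.078 and 0.235 CPM against 1.03 and 0.295 CPM. cd79a overlapped the controls, at 6.54 and 1.25 CPM against 4.51 and 8.26 CPM, and pax5 had at most 1 read in each of these libraries. The 10 thymic epithelium markers ranged from 57.5 to 289 CPM, against 43.5 to 47.9 CPM, yet the defining genes foxn1, psmb11a and psmb11b stayed at or below 0.563 CPM in every library. The 7 stroma and endothelium markers summed to 17.6 and 51.0 CPM in lck-IRF4;p53+/- tumors and 5.59 and 15.2 CPM in lck-IRF4 tumors, against 1.13 and 3.93 CPM in controls. The 6 skeletal muscle markers summed to at most 1.65 CPM in tumor libraries, against at most 3.54 CPM in controls. The 6 T cell markers measured summed to between 702 and 1262 CPM in tumor libraries, against 1077 to 1652 CPM in controls. rag2 alone gave 903 of the 1262 CPM. In the mean of both tumor groups 5 of the 6 were lower and 1, rag2, higher, and 3 were called, all lower. Besides cd8b these were cd4-1 (log2 fold change -4.88, edgeR adjusted p = 0.020) and cd8a (-2.50, edgeR adjusted p = 0.029). The 5 cell cycle genes measured summed to between 983 and 1434 CPM, against 918 to 1138 CPM. For their high means, 2 further T cell markers and 2 further cell cycle genes were left out.

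No proteasome gene passed the test in any comparison. With edgeR and Benjamini-Hochberg adjustment over all genes, 0 of 51 members were called in lck-IRF4;p53+/- tumors against controls, where 339 of all genes tested were called (2.45%). The same held in lck-IRF4 tumors against controls, where 135 genes were called (0.975%), and between the tumor groups, where 1 gene was called (0.00722%). It also held for the mean of both tumor groups against controls, where 521 genes were called (3.76%). DESeq2 called 0 members in each of these 4 comparisons. At an unadjusted p under 0.05, edgeR gave 1 member in lck-IRF4;p53+/- tumors (background 19.8% of genes), 1 in lck-IRF4 tumors (18.6%), 0 between the tumor groups (6.82%) and 4 in the mean of both tumor groups (22.6%). These 4 were psmc2, psmc1a and psmd10, all higher in tumors, and psmg3, lower in tumors.

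The members differed less between groups than most genes did. In the mean of both tumor groups against controls, 2 of 51 members (3.92%) had a log2 fold change beyond 1 in either direction, against 37.5% of all genes tested, and the median size of the change was 0.40 for members and 0.69 for all genes. The members and all genes were not matched for abundance, and 41 of the 57 members had at least 100 counts in every library. The part of abundance in the smaller changes was not tested. Within these small sizes the changes leaned upwards. In lck-IRF4;p53+/- tumors 44 of 51 members had a positive log2 fold change against controls, where 51.6% of all genes tested did. The median of the members was 0.52, against 0.04 for all genes tested. In lck-IRF4 tumors 32 of 51 members had a positive value, where 51.4% of all genes did. The median of the members there was 0.16, against 0.04 for all genes. In lck-IRF4 tumors this excess over all genes was absent with DESeq2, at a median of 0.14 for members against 0.15 for all genes, and with every gene with at least 1 count, at 0.15 for each. Both settings took 22936 genes without the filter on low counts. The all-gene median moved with that wider set, from 0.04, while the median of the members changed little.

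The lean also depended on the control libraries, which differed from each other in the members. Replicate 1 was lower than replicate 2 in 44 of 51 members, whereas 46.9% of all genes tested were lower in it. Without lck-mCherry replicate 1 the median of the members was 0.20 in lck-IRF4;p53+/- tumors, below the all-gene median of 0.28, and -0.13 in lck-IRF4 tumors, against 0.25 for all genes. Without lck-mCherry replicate 2 the medians were 0.90 in lck-IRF4;p53+/- tumors, against 0.18 for all genes, and 0.56 in lck-IRF4 tumors, against 0.22. The upward lean of the members over all genes was thus seen with lck-mCherry replicate 1 as the control and was turned round with replicate 2 alone. In lck-IRF4;p53+/- tumors the median of the members itself stayed positive. These fits took 15434 genes without replicate 1 and 15534 without replicate 2, against 13847 in the reported fit. The part of these wider sets in the all-gene medians was not tested.

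**Figure D1:**
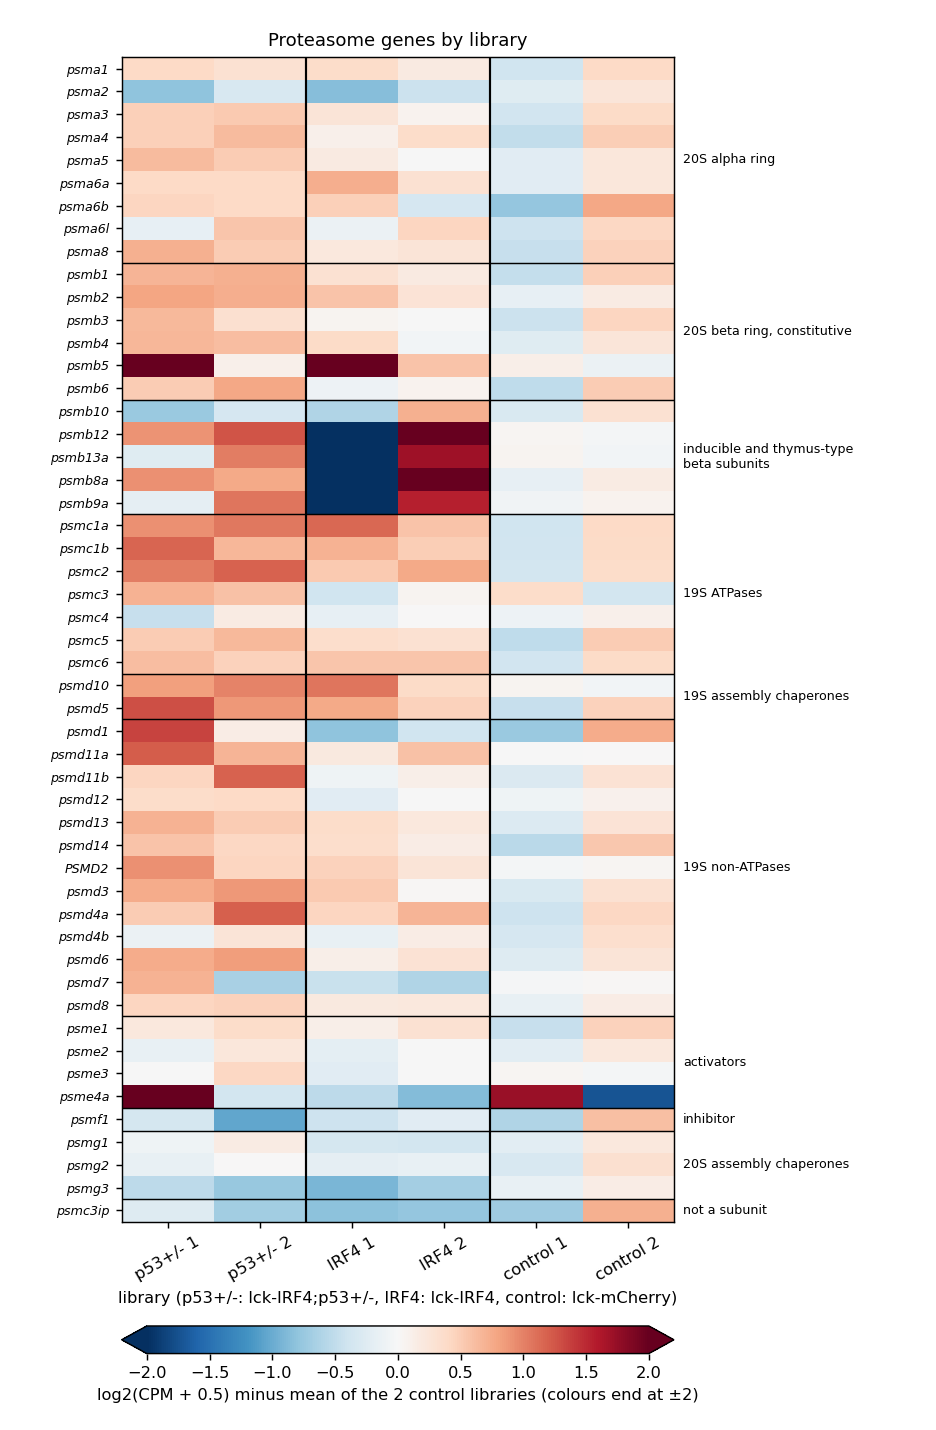
Log2(CPM + 0.5) of the 51 members tested in each library minus the mean of the 2 lck-mCherry libraries, by class, with lck-IRF4;p53+/- on the left, lck-IRF4 in the middle and lck-mCherry on the right. Most rows are pale red in tumor libraries, lck-mCherry replicate 1 is pale blue in most rows, and psmb8a, psmb9a, psmb12 and psmb13a are dark blue in lck-IRF4 replicate 1 alone.

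Among the alpha subunits, which form the outer rings of the core and gate its entry, 8 of 9 had a positive log2 fold change in the mean of both tumor groups. Their median log2 fold change was 0.39 in lck-IRF4;p53+/- tumors and 0.12 in lck-IRF4 tumors. The member with the largest value in the mean of both tumor groups was psma6a, which had 14.3 and 14.3 CPM in lck-IRF4;p53+/- tumors and 18.1 and 13.4 CPM in lck-IRF4 tumors, against 9.11 and 12.7 CPM in controls. Its 4 tumor libraries lay above both controls by a narrow margin, and its log2 fold change was 0.46 ± 0.42 (SE; edgeR adjusted p = 0.56). The exception in direction was psma2, with 82.6 and 116 CPM in lck-IRF4;p53+/- tumors and 80.3 and 108 CPM in lck-IRF4 tumors, against 123 and 172 CPM in controls. All 4 tumor libraries of psma2 lay below both controls, at a log2 fold change of -0.60 ± 0.32 (SE; edgeR adjusted p = 0.31).

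Of 6 constitutive beta subunits tested, 6 had a positive log2 fold change in lck-IRF4;p53+/- tumors, with a median of 0.62, and 4 in lck-IRF4 tumors, with a median of 0.16. The lowest value in the mean of both tumor groups was in psmb3, a structural subunit without a catalytic site, with 198 and 159 CPM in lck-IRF4;p53+/- tumors and 131 and 126 CPM in lck-IRF4 tumors, against 93.4 and 172 CPM in controls. Each tumor group overlapped the controls in psmb3, and its log2 fold change in the mean of both tumor groups was 0.19 ± 0.34 (SE, edgeR adjusted p = 0.79). The largest was in psmb5, the subunit with chymotrypsin-like activity and the target of bortezomib. psmb5 had 107 and 18.6 CPM in lck-IRF4;p53+/- tumors and 83.0 and 25.8 CPM in lck-IRF4 tumors, against 18.9 and 15.8 CPM in controls.

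The high values of psmb5 thus came from replicate 1 of each tumor group, while replicate 2 of lck-IRF4;p53+/- lay within the control range. The counts behind these levels were 1381 and 237 reads in lck-IRF4;p53+/- tumors and 1158 and 256 in lck-IRF4 tumors, against 201 and 161 in controls, so the gap between replicates was far larger than the counting error of these reads. The log2 fold change of 1.75 ± 0.78 (SE) in the mean of both tumor groups did not pass the test (edgeR adjusted p = 0.23). It exceeded that of any other member with all libraries, but was 1.22 without lck-IRF4 replicate 1, below the 1.57 of psmb12, and 0.86 without lck-IRF4;p53+/- replicate 1. psmb7, the subunit with trypsin-like activity, had between 1 and 21 reads per library and was not tested.

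The inducible subunits behaved unlike any other class, in that 4 of them were near 0 in lck-IRF4 replicate 1 and high in every other library. psmb8a, the inducible counterpart of psmb5, had 3008 and 2686 reads in lck-IRF4;p53+/- tumors and 0 and 5324 in lck-IRF4 tumors, against 1186 and 1409 in controls. psmb9a, the counterpart of psmb6, had 1008 and 2404 reads in lck-IRF4;p53+/- tumors and 4 and 2609 in lck-IRF4 tumors, against 908 and 947 in controls. psmb12 had 758 and 974 reads in lck-IRF4;p53+/- tumors and 0 and 1297 in lck-IRF4 tumors, against 347 and 311 in controls. The lck-IRF4 libraries were thus the lowest and the highest of all 6 in each of these genes.

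psmb13a, named as a further inducible beta gene, followed the same order, with 995 and 2386 reads in lck-IRF4;p53+/- tumors and 0 and 2963 in lck-IRF4 tumors, against 1014 and 902 in controls. A count of 0 in lck-IRF4 replicate 1 allows up to 3 reads, or 0.215 CPM. Against this limit, psmb8a was at least 518-fold higher in every other library, psmb13a at least 360-fold and psmb12 at least 142-fold. For psmb9a, the lowest other library was 273-fold higher than lck-IRF4 replicate 1 (95% Poisson interval of the 4 reads, 107- to 1004-fold). These limits cover counting error only, since the reads carried no molecular identifiers.

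**Figure D2:**
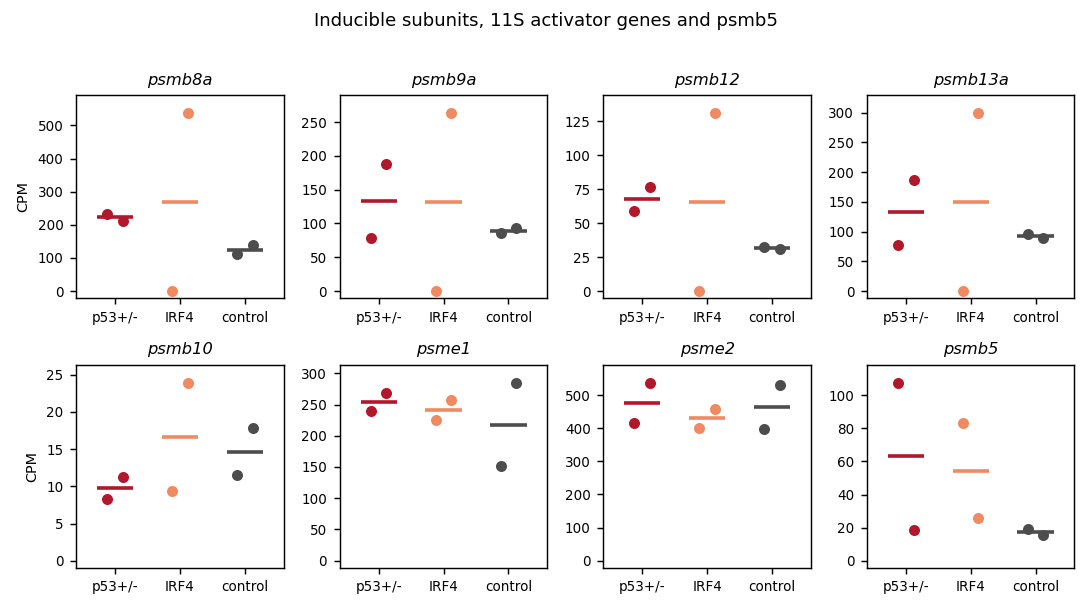
CPM of 4 inducible beta genes of the class I region, of psmb10, of the 11S activator genes psme1 and psme2, and of psmb5, with a point for each library and a bar at the mean of 2, for lck-IRF4;p53+/-, lck-IRF4 and lck-mCherry from left to right. The lck-IRF4 points of psmb8a, psmb9a, psmb12 and psmb13a sit at 0 to 0.287 CPM in replicate 1 and at 131 to 537 CPM in replicate 2, whereas psmb10 lacks a point at 0.

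Outside lck-IRF4 replicate 1 these genes were at or above control levels in most tumor libraries. Relative to the mean of the controls, lck-IRF4 replicate 2 was higher 4.30-fold in psmb8a, 4.14-fold in psmb12, 3.25-fold in psmb13a and 2.95-fold in psmb9a. The mean of the lck-IRF4;p53+/- tumors over that of controls was 1.78-fold in psmb8a, 2.14-fold in psmb12, 1.44-fold in psmb13a and 1.49-fold in psmb9a. In psmb9a and psmb13a these tumors fell on either side of the controls, at 78.4 and 188 CPM for psmb9a and 77.4 and 187 CPM for psmb13a, against 85.3 and 93.2 CPM and 95.2 and 88.7 CPM in controls. Because of the gap between the lck-IRF4 libraries, the standard errors were large: the log2 fold change of psmb8a in the mean of both tumor groups was 0.97 ± 1.75 (SE; edgeR adjusted p = 0.79). Without lck-IRF4 replicate 1 it was 1.47, that of psmb12 1.57, that of psmb13a 1.11 and that of psmb9a 1.07, and none passed the test.

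The drop to near 0 in 1 library was rare in the whole series. Of 22936 genes with recovered counts, 4 had at most 10 reads in lck-IRF4 replicate 1 and at least 100 in each other library, and these were psmb8a, psmb9a, psmb12 and psmb13a. By the same rule, chosen after these values were seen, the other libraries gave between 0 and 4 genes each, with no member among them. The transcript counts deposited for each library, which carry no gene names, showed the same: 4 of 58867 transcripts were at 4 reads or fewer in lck-IRF4 replicate 1 and at 405 or more in each other library. Conversely, lck-IRF4 replicate 1 was the only library with at least 100 reads in 26 genes that had at most 10 elsewhere, against 0 to 9 such genes for the other libraries, and none of these was a member.

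In the RefSeq annotation of GRCz12tu, a later zebrafish assembly than the GRCz11 build named for these files, the 4 genes are direct neighbours on chromosome 19 in the order psmb13a, psmb8a, psmb12, psmb9a, followed by tap2a. psmb13a and psmb8a overlap there, so reads of the pair may have been split between them by the counting, which is not described as using strand. tap2a, a subunit of the peptide transporter of class I presentation, was low in the same library, with 769 and 1543 reads in lck-IRF4;p53+/- tumors and 32 and 2473 in lck-IRF4 tumors, against 1293 and 350 in controls. The level of tap2a in lck-IRF4 replicate 1 was 1.90% of the median of the other libraries. No other neighbour with at least 100 reads in every other library shared the drop.

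Next to tap2a, brd2a, a bromodomain protein gene, stood in lck-IRF4 replicate 1 at 99.2% of the median of the other libraries, and sdha, further along, at 102%, while the last gene read, ccdc127b, stood at 21.3% on 10 reads, against 12 to 46 reads elsewhere. On the other side, the tapasin genes tapbp.1 and tapbp.2, which load class I molecules, stood at 93.6% and 129%. The class I gene mhc1uba, which adjoins psmb13a, varied in another way, with 966 and 1945 reads in lck-IRF4;p53+/- tumors and 4763 and 86 in lck-IRF4 tumors, against 11769 and 6702 in controls. It was thus lowest in lck-IRF4 replicate 2, the library where the 4 beta genes were highest.

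**Figure D3:**
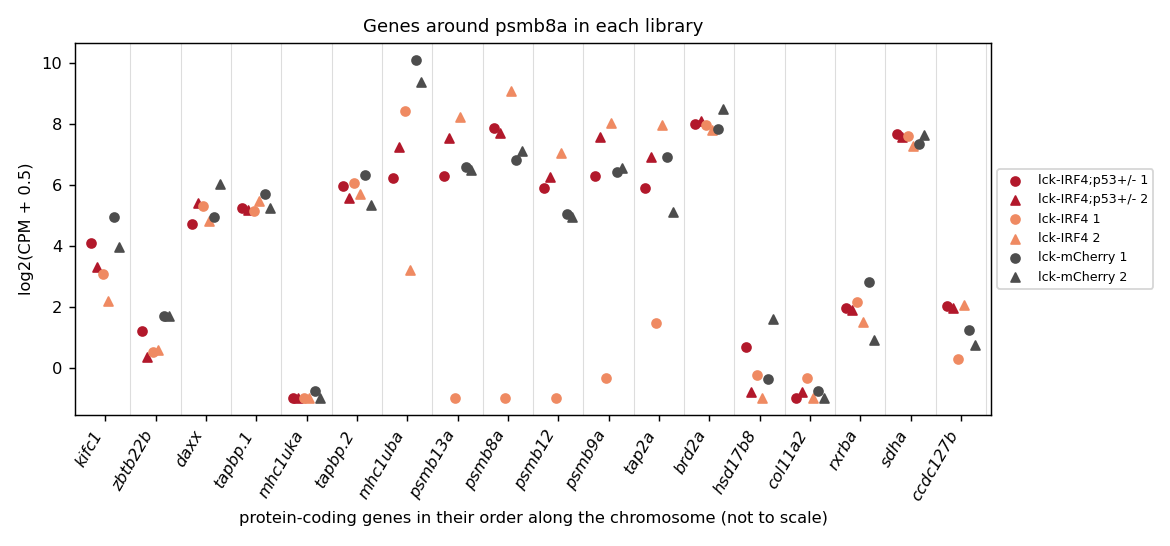
Log2(CPM + 0.5) of 18 protein-coding genes around psmb8a in each of 6 libraries, in their order along the chromosome of GRCz12tu and not to scale; circles are replicate 1 and triangles replicate 2, and red is lck-IRF4;p53+/-, orange lck-IRF4 and grey lck-mCherry. The orange circle of lck-IRF4 replicate 1 lies far below the rest for psmb13a, psmb8a, psmb12, psmb9a and tap2a, and among the rest for brd2a, sdha and the tapasin genes.

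psmb10, the inducible counterpart of psmb7, lies on chromosome 4 in that assembly and did not follow the other inducible genes. It had 8.33 and 11.2 CPM in lck-IRF4;p53+/- tumors and 9.32 and 23.9 CPM in lck-IRF4 tumors, against 11.5 and 17.9 CPM in controls. Both lck-IRF4;p53+/- libraries lay below both controls, and the lck-IRF4 libraries lay on either side of them. The log2 fold change in the mean of both tumor groups was -0.21 ± 0.51 (SE, edgeR adjusted p = 0.85). The thymus-type genes were close to absent, psmb11a with at most 1 read and psmb11b with at most 2 reads in any tumor library, against 1 and 0 reads of psmb11a and 6 and 4 reads of psmb11b in controls.

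The 19S ATPases held the members with the smallest unadjusted p-values among those higher in tumors. Of 7 ATPases, 4 (psmc1a, psmc1b, psmc2 and psmc6) lay above both controls in all 4 tumor libraries, where 17.3% of all genes tested did, and the class had a median log2 fold change of 0.61 in lck-IRF4;p53+/- tumors and 0.51 in lck-IRF4 tumors. psmc2 had 172 and 191 CPM in lck-IRF4;p53+/- tumors and 121 and 142 CPM in lck-IRF4 tumors, against 64.9 and 108 CPM in controls. Its log2 fold change was 1.07 ± 0.37 (SE) in lck-IRF4;p53+/- tumors (edgeR adjusted p = 0.18) and 0.60 ± 0.37 in lck-IRF4 tumors (edgeR adjusted p = 0.45). psmc1a had 109 and 121 CPM in lck-IRF4;p53+/- tumors and 128 and 86.0 CPM in lck-IRF4 tumors, against 43.5 and 76.2 CPM in controls, a log2 fold change in the mean of both tumor groups of 0.89 ± 0.37 (SE; edgeR adjusted p = 0.21).

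At the other end of the ATPases stood psmc4, with 76.3 and 118 CPM in lck-IRF4;p53+/- tumors and 93.4 and 106 CPM in lck-IRF4 tumors, against 98.0 and 113 CPM in controls. Its groups overlapped, with a log2 fold change of -0.10 (95% interval -0.83 to 0.62) in the mean of both tumor groups. The 19S assembly chaperones bind the ATPases before the particle is complete, and both tested lay above both controls in all 4 tumor libraries, against the same 17.3% of all genes. psmd10, also known as gankyrin, had 42.3 and 47.8 CPM in lck-IRF4;p53+/- tumors and 50.8 and 31.4 CPM in lck-IRF4 tumors, against 24.7 and 23.0 CPM in controls. The control libraries of psmd10 were close together, and its log2 fold change was 0.85 ± 0.36 (SE; edgeR adjusted p = 0.22).

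psmd5, the other chaperone tested, had 40.5 and 29.9 CPM in lck-IRF4;p53+/- tumors and 27.7 and 22.5 CPM in lck-IRF4 tumors, against 11.6 and 22.4 CPM in controls. The lowest tumor library of psmd5 exceeded the higher control by only 22.49 against 22.43 CPM, and its log2 fold change was 0.80 ± 0.42 (SE; edgeR adjusted p = 0.31). All 13 non-ATPase subunits tested had higher means in lck-IRF4;p53+/- tumors than in controls, and 8 of 13 did in lck-IRF4 tumors, with median log2 fold changes of 0.69 and 0.18. Among these subunits the largest log2 fold change in the mean of both tumor groups was in psmd11a, a scaffold subunit of the lid. psmd11a had 29.9 and 20.4 CPM in lck-IRF4;p53+/- tumors and 14.6 and 19.2 CPM in lck-IRF4 tumors, against 12.6 and 12.7 CPM in controls. All 4 tumor libraries of psmd11a exceeded both controls (log2 fold change 0.70 ± 0.40 SE; edgeR adjusted p = 0.35).

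In the mean of both tumor groups, the most negative value among the non-ATPases was in psmd7 (log2 fold change -0.24), a lid subunit that partners the deubiquitinase psmd14. psmd7 had 38 and 11 reads in lck-IRF4;p53+/- tumors and 15 and 9 in lck-IRF4 tumors, against 17 and 17 in controls, too few to show a difference of less than several-fold: the 95% interval of its log2 fold change in the mean of both tumor groups ran from -2.02 to 1.53. PSMD2, the large subunit that binds ubiquitin receptors and their cargo, had 206 and 148 CPM in lck-IRF4;p53+/- tumors and 151 and 131 CPM in lck-IRF4 tumors, against 107 and 112 CPM in controls, and was singled out here after its values were seen. It was higher in 4 of 4 tumor libraries, at a log2 fold change of 0.53 ± 0.30 (SE; edgeR adjusted p = 0.34).

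**Figure D4:**
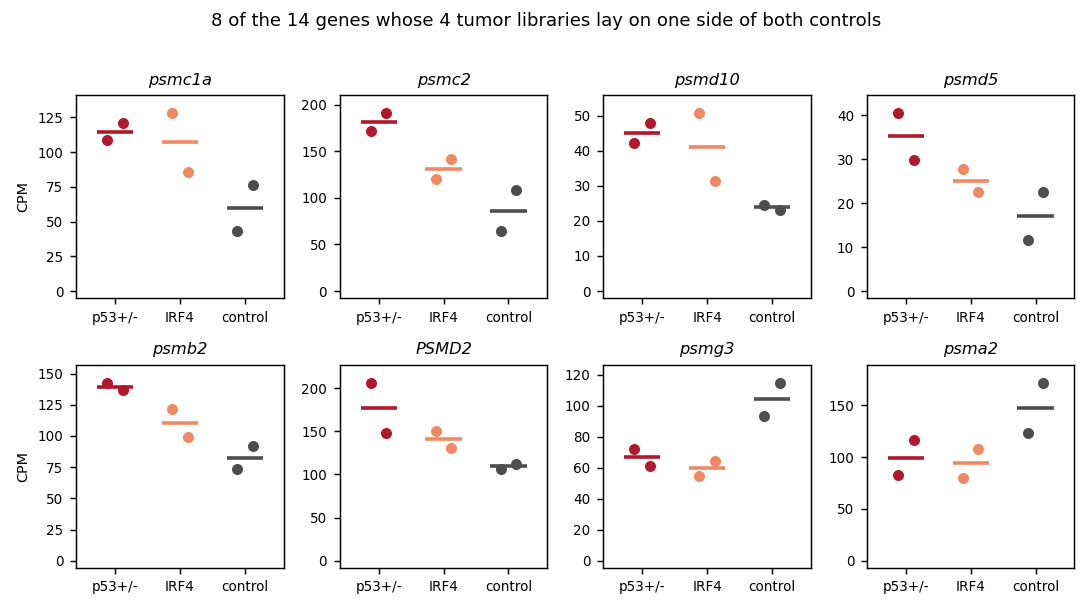
CPM of 8 of the 14 members whose 4 tumor libraries lay on the same side of both controls, with a point for each library and a bar at the mean of 2, for lck-IRF4;p53+/-, lck-IRF4 and lck-mCherry from left to right; the 8 were picked after their values were seen. psmg3 and psma2 are lower in every tumor library than in both controls, and the other 6 genes are higher.

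Across all classes, 12 of 51 members had all 4 tumor libraries above both controls, where 17.3% of all genes tested did, and 2 had them below both, where 13.9% of genes did. The 12 were 4 ATPases, 4 non-ATPase subunits, both 19S chaperones, psma6a and psmb2, and the 2 were psma2 and psmg3. With lck-mCherry replicate 1 as the only control the count was 33 of 51, where 31.3% of all genes lay above it, and with lck-mCherry replicate 2 alone it was 14, where 32.8% of genes did; a rule with 1 control is the easier to meet. In lck-IRF4 tumors alone, 13 of 51 members lay above both controls, which is close to the 25.9% of all genes, and 5 lay below, against 21.1% of genes. In lck-IRF4;p53+/- tumors alone, 25 of 51 lay above both controls, against 27.6% of genes, and 3 lay below, against 22.3%.

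The 11S activator subunits psme1 and psme2, which are induced by interferon together with the immunoproteasome, did not follow psmb8a. psme1 had 239 and 268 CPM in lck-IRF4;p53+/- tumors and 226 and 257 CPM in lck-IRF4 tumors, against 151 and 285 CPM in controls. psme2 had 416 and 537 CPM in lck-IRF4;p53+/- tumors and 401 and 459 CPM in lck-IRF4 tumors, against 399 and 532 CPM in controls. In each of them the tumor and control libraries overlapped, and lck-IRF4 replicate 1 lay within the range of the others. Their log2 fold changes in the mean of both tumor groups were 0.18 (95% interval -0.60 to 0.96) for psme1 and -0.04 (-0.69 to 0.61) for psme2.

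psme4a, which encodes a copy of the PA200 activator, had the most negative log2 fold change of the activators in the mean of both tumor groups (-0.63 ± 1.43 SE), with 114 and 10 reads in lck-IRF4;p53+/- tumors and 9 and 4 in lck-IRF4 tumors, against 53 and 0 in controls. Replicate 1 exceeded replicate 2 in every group, and in controls the difference was that between 53 reads and none. psmf1, which encodes the inhibitor PI31, had 38.5 and 23.6 CPM in lck-IRF4;p53+/- tumors and 36.9 and 41.7 CPM in lck-IRF4 tumors, against 32.1 and 75.0 CPM in controls. Its controls spanned 3 of the 4 tumor libraries, and its log2 fold change was -0.62 ± 0.42 (SE; edgeR adjusted p = 0.44).

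Of the psmg genes, which encode chaperones that assemble the 20S core, 0 of 3 had a positive log2 fold change in the mean of both tumor groups. pomp, a 20S chaperone gene outside the naming rule, had a positive one there, at 0.62 (edgeR adjusted p = 0.37). psmg3 had 71.8 and 61.2 CPM in lck-IRF4;p53+/- tumors and 54.6 and 64.2 CPM in lck-IRF4 tumors, against 93.3 and 115 CPM in controls. All 4 tumor libraries lay below both controls, at a log2 fold change of -0.72 ± 0.29 (SE), which did not pass the test (edgeR adjusted p = 0.20). psmg2 had 36.4 and 40.5 CPM in lck-IRF4;p53+/- tumors and 35.5 and 36.4 CPM in lck-IRF4 tumors, against 32.4 and 50.3 CPM in controls. All 4 tumor libraries of psmg2 lay between the controls. psmc3ip met the naming rule but encodes a cofactor of meiotic recombination, not a subunit. It had 26.1 and 19.3 CPM in lck-IRF4;p53+/- tumors and 17.6 and 18.3 CPM in lck-IRF4 tumors, against 19.1 and 51.9 CPM in controls. Its lck-IRF4;p53+/- libraries thus lay between the controls, and both lck-IRF4 libraries lay below them.

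The comparison of lck-IRF4;p53+/- tumors with lck-IRF4 tumors sets no control library against the tumors. Its filter, scaling and estimate of spread still came from the fit of all 6 libraries. Most members lay on the same side in this comparison. Of 51 members, 44 had a positive log2 fold change, where 49.0% of all genes tested did. The median of the members was 0.31, against -0.01 for all genes tested. In 26 of 51 members both lck-IRF4;p53+/- libraries exceeded both lck-IRF4 libraries, where 18.6% of all genes tested did so, and in 0 members were both lower, where 20.2% of genes were. Members measured in the same libraries are not independent of each other. The macrophage and stroma marker sums were also higher in both lck-IRF4;p53+/- libraries than in both lck-IRF4 libraries, and their part here was not tested.

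By class, the 26 comprised 9 of 13 non-ATPase subunits, 5 of 6 constitutive beta subunits, 4 of 9 alpha subunits, 3 of 7 ATPases, 2 of 3 20S assembly chaperones, 1 of 2 19S chaperones, 1 of 4 activators and psmc3ip. Of the 5 inducible beta subunits tested, 0 were among them, where 18.6% of all genes met the rule. In each of these 5 genes lck-IRF4 replicate 2 was the highest of the 6 libraries, so that library alone was enough to give the 0. psmd6, a lid subunit given as an example after its values were seen, had 233 and 248 CPM in lck-IRF4;p53+/- tumors, against 151 and 169 CPM in lck-IRF4 tumors. psmb6, the subunit with caspase-like activity and likewise an example, had 113 and 135 CPM, against 73.6 and 82.7 CPM. The difference was 0.59 ± 0.34 (SE) on the log2 scale for psmd6 and 0.67 ± 0.42 for psmb6, and neither passed the test (edgeR adjusted p = 0.92 for psmd6 and 0.96 for psmb6). With the libraries compared alone, the unadjusted edgeR p was 0.050 for psmd6 and 0.045 for psmb6, against 0.12 and 0.15 in the reported fit. That setting called 0 of 50 members and 0 of 13243 genes. The median of the members was 0.35 without lck-IRF4 replicate 1 and between 0.29 and 0.34 without any other single library.

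**Figure D5:**
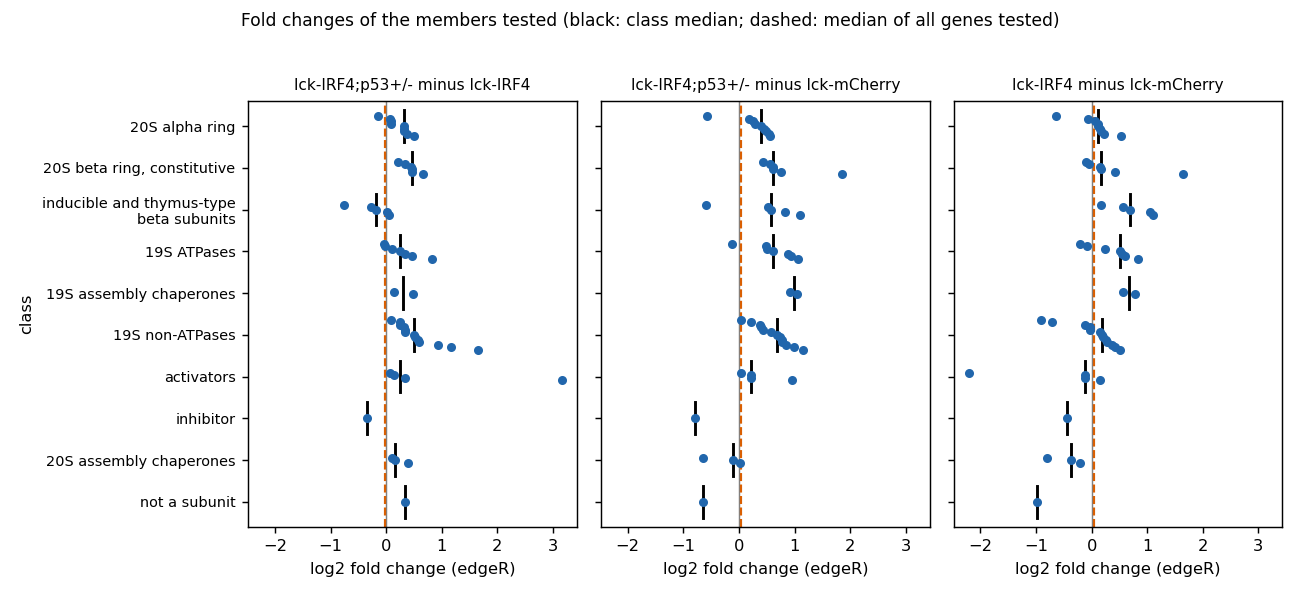
Log2 fold changes (edgeR) of the 51 members tested, a point each, by class, for lck-IRF4;p53+/- minus lck-IRF4, lck-IRF4;p53+/- minus lck-mCherry and lck-IRF4 minus lck-mCherry from left to right; black bars are class medians and the dashed line is the median of all genes tested. In the left panel the constitutive beta and non-ATPase points all lie above 0, and the median of the inducible beta subunits is -0.18.

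Of 23 other genes of the pathway, 20 were measured and 19 tested, and 1 passed the test. adrm1, a ubiquitin receptor of the 19S particle whose symbol lies outside the naming rule, rose in lck-IRF4;p53+/- tumors. It had 16.8 and 23.3 CPM in lck-IRF4;p53+/- tumors and 10.5 and 20.7 CPM in lck-IRF4 tumors, against 1.88 and 2.56 CPM in controls. Its log2 fold change was 3.17 in lck-IRF4;p53+/- tumors (edgeR adjusted p = 0.044) and 2.81 in lck-IRF4 tumors, which did not pass (edgeR adjusted p = 0.073) but did at 2.79 with DESeq2 and with every gene with at least 1 count, and 2.99 in the mean of both tumor groups (edgeR adjusted p = 0.036). Its call in the mean of both tumor groups was kept without lck-IRF4;p53+/- replicate 1 and lost without each other library in turn, at log2 fold changes of 2.68 to 3.22, and that in lck-IRF4;p53+/- tumors was kept only without lck-IRF4 replicate 1, at 2.92 to 3.42. Each of these fits left 1 library in a group, so a lost call there says little about adrm1 itself. With all libraries, the highest log2 fold change of a member was 1.75 in the mean of both tumor groups and 1.86 in lck-IRF4;p53+/- tumors, both in psmb5. The other 18 had no call in any comparison. In the mean of both tumor groups, 10 of the 19 tested had a positive log2 fold change and 9 a negative one. usp14, a deubiquitinase of the 19S particle, had 255 and 275 CPM in lck-IRF4;p53+/- tumors and 194 and 165 CPM in lck-IRF4 tumors, against 115 and 141 CPM in controls. Its log2 fold change in that mean was 0.77 (edgeR adjusted p = 0.17). Larger changes went downwards in zfand5a (-3.37, edgeR adjusted p = 0.074) and zfand5b (-1.45, edgeR adjusted p = 0.062).

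The genes of class I antigen processing and the interferon response gave no call in 17 tested, in any comparison, where at most 3.76% of all genes were called. Their median log2 fold change was -0.28 in lck-IRF4;p53+/- tumors and -0.005 in lck-IRF4 tumors. An unadjusted edgeR p under 0.05 was found for 1 of 17 in lck-IRF4;p53+/- tumors, against 19.8% of all genes. In lck-IRF4 tumors it was found for 2 of 17, against 18.6% of all genes. b2m, the light chain of class I molecules, had 183 and 443 CPM in lck-IRF4;p53+/- tumors and 334 and 440.2 CPM in lck-IRF4 tumors, against 319 and 375 CPM in controls, so that lck-IRF4 replicate 1 was not low in it. irf9, a transcription factor of the interferon response singled out after its values were seen, had 21.7 and 15.5 CPM in lck-IRF4;p53+/- tumors and 11.9 and 13.3 CPM in lck-IRF4 tumors, against 32.8 and 23.4 CPM in controls, lower in all 4 tumor libraries but without passing the test (edgeR adjusted p = 0.22 in the mean of both tumor groups). In that mean 6 of the 17 were higher and 11 lower. rsad2, likewise singled out, was higher in all 4 tumor libraries on few reads. It had 1.79 and 1.49 CPM in lck-IRF4;p53+/- tumors and 1.79 and 8.17 CPM in lck-IRF4 tumors, against 0.469 and 0.984 CPM in controls (edgeR adjusted p = 0.24 in that mean).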

How the data were processed

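RNA-seq was analysed from 6 zebrafish libraries, 2 per group, grouped by their labels. The labels name total RNA, strand-specific libraries, paired-end sequencing on the BGISeq500, and list STAR 2.5.2a, featureCounts 1.6.1, DESeq2 1.12.4 and the GRCz11 build without roles. The authors deposited whole-number counts per transcript for each library, which no source here pairs with genes, so they served for library sizes. The authors also deposited 2 DESeq2 tables, each tumor group against the shared controls. As deposited, the mean column of these tables is a signal, made by the authors as the mean over 4 libraries of gene counts divided by size factors. The fold changes, standard errors, test statistics and p-values in these tables hold the authors' comparison and were not used.

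Gene counts were recovered from the mean columns. A mean is a sum of 4 whole numbers, each times a fixed step per library, and both tables share the controls; the whole numbers that gave both means to the digits printed were found by lattice reduction. The groups follow from the tables; the order of the libraries within a group was taken from exact matches with the labelled transcript files, where the assignment used gave 150 matches and any other at most 19. All 22962 genes with a first-table mean up to 6000 were solved, and none of them was solved after small shifts of its means. Genes with a mean over 6000 in either table (292, no member among them) were left out, so 22936 remained. The plan had foreseen counts summed over transcripts, or no test.

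Counts were tested with edgeR 4.0.16 in R 4.3.3 (quasi-likelihood, TMM, filterByExpr, all 6 libraries in 1 fit, group only) with calls at 0.05 after Benjamini-Hochberg adjustment; DESeq2 1.42.0 was an alternative. The common biological coefficient of variation was 0.537. Intervals use the SE and the fit's degrees of freedom. Per-library values are given for inducible and thymus-type genes, psme1, psme2 and the members with the largest and smallest change in each class; others were chosen after their values were seen. Replicates differed by more than sampling noise in every group. Symbols were matched to RefSeq of GRCz12tu for 55 members, for gene order only. The steps were tested on simulated data. The members and lists were chosen with earlier results of these data known.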

Additional observations from a re-analysis of the deposited data

How the results depend on the processing

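The count of members called was 0 in each comparison under each alternative that was run: RLE size factors, every gene with at least 1 count, the libraries compared alone, DESeq2, a replicate block, each library left out, and, added after the data were seen, the most abundant genes included. Without lck-mCherry replicate 1 or 2, 0 genes of any kind were called by edgeR against controls, so those settings say nothing about the members. Leaving out a control leaves its group with 1 library, assumed to vary like the others. A fit on single transcripts was not run, since no source used here pairs them with genes.

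Counts of all genes called moved more. In lck-IRF4;p53+/- against lck-mCherry the count was 339 in the reported fit, 779 with every gene with at least 1 count, 580 with the libraries compared alone and 1461 with DESeq2. In lck-IRF4 against lck-mCherry it was 135, with 694, 419 and 1357, and between the tumor groups it was 1, with 55, 0 and 284. For both tumor groups against lck-mCherry it was 521, with 1156 for every gene with at least 1 count and 1798 for DESeq2. In that comparison the median of all genes was 0.28 with every gene with at least 1 count and 0.29 with DESeq2, close to that of the members at 0.31 and 0.30. Both settings lacked the filter on low counts. In the reported fit the medians were 0.03 for all genes and 0.32 for the members.

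Over 88 log2 fold changes (22 named members in 4 comparisons), none changed sign under RLE, the low-count setting or DESeq2, 8 did with the replicate block and 1 of 64 with the libraries compared alone. The replicate numbers are shared by the groups, but the labels tie them to nothing else, and the deviations of same-numbered libraries correlated at 0.25 between lck-IRF4;p53+/- and lck-mCherry, 0.059 between lck-IRF4 and lck-mCherry and -0.013 between the tumor groups. The replicate block left 0 members called and gave, for both tumor groups against lck-mCherry, -0.39 in psmb13a, -0.38 in psmb9a and 0.31 in psme4a.

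Without 1 library in turn, 64 of 528 such values changed sign. The median of the members in lck-IRF4 against lck-mCherry ran from -0.13 to 0.56. For both tumor groups against lck-mCherry the log2 fold change ran from -6.37 to 1.47 in psmb8a, -3.84 to 1.07 in psmb9a, -5.24 to 1.57 in psmb12 and -6.30 to 1.11 in psmb13a, the low ends without lck-IRF4 replicate 2, where the fit rests on counts at or near 0 and gives no bound. It ran from 0.86 to 2.13 in psmb5, with no change of sign, and from -0.64 to 0.15 in psmb10, -0.19 to 0.70 in psmb3, -0.29 to 0.024 in psmc4, -0.83 to 0.06 in psmd7, -0.21 to 0.71 in psme1, -0.24 to 0.18 in psme2, -1.96 to 7.27 in psme4a (the high end against a lone control at 0 reads, which is no bound) and -1.11 to 0.12 in psmf1. The count of members with every tumor library above every control ran from 12 to 33, and the share of all genes from 19.2% to 32.8%; leaving a library out can only raise both. The cause of these changes was not tested. With 2 libraries a group, and controls that differed in most members, and few reads in members such as psmd7, both the spread and the depth limit what can be detected.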
